A study of Mus musculus with 28 samples.

Results

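Acetylation of lysine 27 on histone H3 (H3K27ac) lay at 80 regions in all 12 H3K27ac libraries of a mouse lung adenocarcinoma study while none of its 12 H3K9ac libraries had a peak there. The 80 regions were found by merging overlapping peaks of the 12 H3K27ac lists into 32703 regions and keeping those with a peak in every list, no overlap with any H3K9ac peak, and more than 5 kb between the region and both ends of every protein-coding gene of the mm10 RefSeq annotation. Of the 32703 regions, 11679 had a peak in all 12 lists and are called constant here. The 80 regions were thus chosen by presence and absence of peaks, and neither is a finding about them.

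The cells were mouse lung adenocarcinoma cells cultured in RPMI-1640 medium with serum. Res was the resistant line, of wild-type genotype, described as resistant to blockade of the PD-1 checkpoint, and its labels, unlike those of the other groups, add that the cells were given PD-1 inhibitors. Sen was the sensitive line, also of wild-type genotype. Res_shFabp7 was the resistant line carrying a hairpin against Fabp7, which encodes a fatty acid binding protein, and Res_Ctrl was the resistant line labelled as its control. Each mark had 3 biological replicates in each of the 4 groups, and the 4 input libraries were not analysed here. Whether a line was 1 clone, and how many hairpins were used, are not given in the sources used here. The peak lists hold no measure of Fabp7 RNA, so the knockdown could not be checked.

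H3K27ac marks active enhancers and active promoters, while H3K9ac is usually strongest at active promoters, around transcription start sites, and weaker at enhancers. Both are laid down by acetyltransferases and bound by proteins with bromodomains. A distal region with H3K27ac is therefore commonly read as a candidate enhancer, and enhancers of genes such as Myc can lie far from the gene they act on. No measurement of these libraries links a region to a target gene, so a region is named here by the protein-coding gene it lies within or, between genes, by the gene with the nearest end, as an address only.

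The number of regions rested on the depth of the lists. The first Sen H3K27ac list held 15856 peaks with 2241387 tags, while the other 11 held 19811 to 28934 peaks with 3703250 to 10521234 tags. Without that list, 272 distal regions had a peak in the 11 others and no H3K9ac peak, and all 80 regions lay within these 272. Leaving out any other H3K27ac list gave 80 to 93 regions. With each list of a mark shortened to the same number of best-scored peaks, 440 regions passed the same rule. Krt8, Krt18, Krt19 and Foxa2, markers of epithelium and endoderm, had an H3K27ac peak within 1 kb of a gene end in all 12 lists, Cdh1 in 11, Epcam in 1 and Nkx2-1 in 0, whereas Ptprc, Cd3e, Lyz2, Pecam1, Cdh5 and Pdgfrb, markers of blood, vessel and mural cells, had one in 0. Col1a1, a gene of fibroblasts, had one in 11.

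One region reached an annotated transcription start, and its start is shown because no other member lies on one. The region chr6:124794625-124797240 lies 11364 bases from the nearest end of Spsb2, a gene for a SOCS box protein, and holds the start of the long non-coding RNA Gm38894, 147 bases inside its edge. The 300-base window around that start, chr6:124797044-124797343 on the minus strand, is given from RefSeq on GRCm38.p6, with the one match to the 13 motifs searched in capitals.
Gm38894: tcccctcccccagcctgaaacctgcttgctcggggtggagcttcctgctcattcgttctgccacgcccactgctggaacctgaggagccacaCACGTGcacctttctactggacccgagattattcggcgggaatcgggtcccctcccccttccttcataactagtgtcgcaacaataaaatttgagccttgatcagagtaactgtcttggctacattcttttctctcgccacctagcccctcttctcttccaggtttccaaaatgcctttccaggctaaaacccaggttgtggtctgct
The capitals mark an E-box (CACGTG, which reads the same on both strands) that begins 158 bases upstream of the start. Its nearest base lies 6 bases beyond the edge of the region: 197 of the window's bases fall inside the region and 103 outside it. The E-box occurs in 7.15% of the 32851 start windows of the annotation. The other motifs were searched on both strands with no match: TGANTCA for the AP-1 family, TGTTTAC for forkhead factors, CACTTNA for the NKX2 factors, CATTCCA for the TEAD factors, CCGGAAG for the ETS family, TGTGGTT for the RUNX family, AGATAAG for the GATA family, TTGCNNAA for the CEBP factors, CAAAGTCCA for the nuclear receptor HNF4, GGGCGGG for SP and KLF factors, ACAATGG for the SOX family, and CTCF. Each of these is held by 0.475% (HNF4) to 25.6% (SP/KLF) of all windows. The window had 53.7% G and C and 10 CpG sites, against medians of 52.7% and 7 over all windows and of 62.7% and 24 over the 8920 windows in constant regions near gene ends with H3K9ac. H3K27ac at this region was 34.8, 34.7 and 51.5 CPM in Res, 50.7, 51.3 and 59.6 in Sen, 26.6, 22.7 and 30.6 in Res_shFabp7, and 27.8, 32.8 and 31.0 in Res_Ctrl. Its levels overlapped between Res and Sen and between Res_shFabp7 and Res_Ctrl. CPM here is the authors' number of tags in a region's peaks over the tags in all constant regions of that library, scaled with edgeR's TMM factors.

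Distal constant regions without H3K9ac were few. Of the 3610 constant regions more than 5 kb from gene ends, these 80 (2.22%) had no H3K9ac peak, 61 had one in 1 list and 1431 (39.6%) had one in all 12. Of the 8069 constant regions nearer to a gene end, 17 (0.211%) had no H3K9ac peak and 7475 (92.6%) had one in all 12. The share without H3K9ac varied with how many H3K27ac lists held the region: it was 97.5% of the 3380 distal regions found in 1 list, 50.2% of those in 8 lists, 18.6% of those in 11 lists and 2.22% of those in 12. H3K9ac lists were shorter, with 11771 to 18317 peaks. Of the 61 regions with H3K9ac in 1 list, 26 had it in the second Res_shFabp7 list, which was the longest, 10 in the second Sen list, and 0 in 5 lists (the first and the third Res, the first and second Res_Ctrl and the first Res_shFabp7 list). Without the second Res_shFabp7 H3K9ac list the number without H3K9ac was 106, and without any other single H3K9ac list it was 80 to 90.

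**Figure D1:**
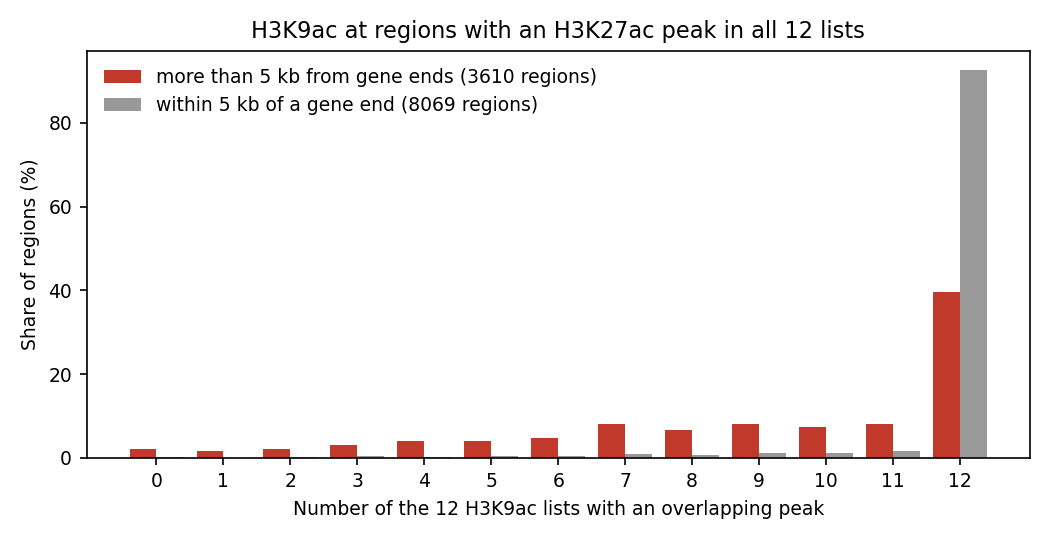
Share of constant H3K27ac regions (%, y axis) by the number of the 12 H3K9ac lists with an overlapping peak (x axis), for 3610 regions more than 5 kb from gene ends (red) and 8069 nearer regions (grey). The 80 regions described here are the red bar at 0 (2.22%), and 12 lists hold 39.6% of the distal and 92.6% of the nearer regions.

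The 80 regions carried less H3K27ac than constant distal regions with H3K9ac. Their median was 183 tags per library, 41.9 CPM and 69.4 tags per called kb, against 323 tags, 74.9 CPM and 88.1 tags per called kb in the 3530 distal regions with H3K9ac. The 17 regions near gene ends without H3K9ac had medians of 172 tags, 40.2 CPM and 66.8 tags per called kb, close to those of the 80, and the 8052 regions near gene ends with H3K9ac had 258 tags, 60.4 CPM and 93.0 tags per called kb. Within distal regions, those with H3K9ac in 1 list had a median of 44.4 CPM and those with it in 12 lists 98.4 CPM. The order of the 80 below distal regions with H3K9ac was the same in each of the 12 libraries: the median tags per called kb were 82.0, 76.0 and 74.6 against 104, 90.4 and 89.0 in Res, and 48.9, 77.2 and 74.3 against 57.6, 93.6 and 90.5 in Sen. In Res_shFabp7 they were 56.3, 69.1 and 91.1 against 78.4, 97.4 and 129, and in Res_Ctrl 59.0, 56.7 and 61.0 against 77.0, 73.4 and 79.1.

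The peak caller's own values, as the authors deposited them, ran the same way. The median fold over background was 6.08 in the 80 regions and 8.79 in distal regions with H3K9ac, and the median score, which grows as the caller's p falls, was 224 and 549. The lowest of a region's 12 scores had a median of 69.7 in the 80 regions and 159 in distal regions with H3K9ac, where the lists begin at 50.0. Over all constant regions the 80 stood at a median percentile of 24.4 for tags. Together they held 0.288% to 0.459% of the tags in constant regions of a library. These values describe regions sorted by their peak calls and carry no test.

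**Figure D2:**
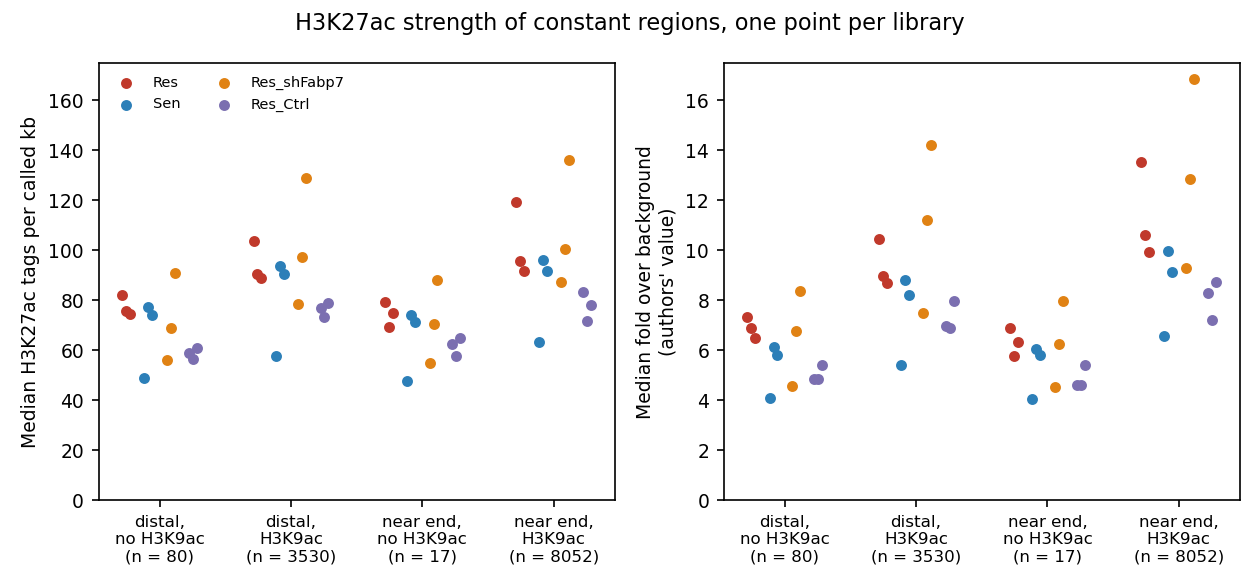
Median H3K27ac tags per called kb (left, y axis) and median fold over background as the authors deposited it (right, y axis) in 4 classes of constant regions (x axis), with 1 point for each of the 12 libraries, coloured by group. In every library the 80 distal regions without H3K9ac lie below the distal regions with H3K9ac, and the lowest points of each class are from the first Sen library.

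The 80 regions spread over 19 chromosomes, with a median width of 3728 bases (1555 to 13889). In 58 of them every list had a single peak, and in 22 some list had more; the summits of the 12 lists lay within a median of 1062 bases of each other. The smallest gap between neighbours was 63079 bases, between the pair of regions at Dap, a gene named for death-associated protein, so the regions formed no close runs. Chromosomes 3 and 15 each held 12 of the 80 (15%), against 7.76% and 6.26% of constant distal regions, and chromosome X held 0. Inside a protein-coding gene lay 31 regions (38.75%), against 51.7% of distal regions with H3K9ac, and 49 lay between genes. Of the 61 distal regions with H3K9ac in 1 list, 18 (29.5%) lay inside one, so the lower share was not particular to the 80. The gene table gives no exons, so exonic and intronic positions are not told apart here.

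The median distance to the nearest gene end was 40474.5 bases, and 17 regions lay over 100 kb from one. The farthest, named by Kcnt2, a potassium channel gene, lay 848963 bases away, and the region named by Myc lay 508534 bases from that gene. The nearest H3K9ac peak of any list was a median of 20330 bases away (344 to 779451), and 23 regions had one within 10 kb. The closest was at the region of Smu1, a splicing factor gene, 344 bases away, and the farthest at the region of Lrriq3. At the limit of the rule, the regions named by Asah1, the acid ceramidase gene (chr8:41346265-41350333), and by Gmfb (chr14:46800453-46802511) lay 5619 and 5638 bases from a gene end with 49.3 and 29.1 CPM. Just outside it, the regions at Sh3tc1 (chr5:35732646-35735129) and Zfp687 (chr3:94985278-94990127) lay 4858 and 4547 bases from one with 32.2 and 45.3 CPM.

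Few of the 80 regions held an annotated transcription start. Since the rule removes ends of protein-coding genes, the comparison is with other distal regions: 1 of the 80 (1.25%) held a start, against 651 of 3530 (18.4%) distal regions with H3K9ac, of which 378 held the start of a long non-coding RNA. Of the 61 distal regions with H3K9ac in 1 list, 2 (3.28%) held a start, close to the share in the 80. Non-coding genes overlapped 10 of the 80 regions, with 7 on a long non-coding RNA, 4 on a pseudogene and 0 on a microRNA. Among the 10, the 6 with most H3K27ac were the regions named by Gm51579 (pseudogene Gm8079), Cxxc4 (Gm26691), Cxcl5 (Gm36084), Pdgfb (Gm41361), Ptgs2 (pseudogene Gm9687) and Adam11 (pseudogene Gm39501). Only Gm38894 had its start within a region.

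The genes that name the regions mostly had acetylated ends. Of the 79 genes, 49 (62.0%) had an H3K27ac peak within 1 kb of an end in all 12 lists and 51 (64.6%) an H3K9ac peak in all 12, while 17 (21.5%) had H3K9ac in 0 lists. The 2241 genes that name distal regions with H3K9ac gave 55.7%, 58.4% and 28.7%, and all 21883 protein-coding genes 38.5%, 41.9% and 48.7%. Among the genes without H3K9ac at an end in any list were Rspo2, a secreted Wnt agonist, Dkk2, a secreted Wnt modulator, Gad2, which makes GABA from glutamate, Sprr2b, a component of the cornified envelope, and Fer1l6, a ferlin gene that names the region with most H3K27ac. Of 11 gene lists with 347 genes, 4 lists named any region: the growth factor list named 3 (Met, Pdgfb and Pdgfc, of 30 genes), and the lists of AP-1 and immediate early factors (Myc, of 23), of Hippo, TGF-beta and Wnt genes (Tcf7l2, of 36) and of interferon, NF-kB and chemokine genes (Cxcl5, of 37) named 1 each. These 4 lists named 33, 26, 37 and 21 of the distal regions with H3K9ac. The lists of endoderm factors, epithelial genes, mesenchymal genes, lipid genes, ferroptosis genes, clock genes and cell cycle genes named 0 of the 80. They named 33, 17, 21, 22, 5, 6 and 31 of the 3530 distal regions with H3K9ac. With 80 regions beside 3530, counts of 0 are not read as an absence of these genes.

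A region with a peak in every library could still vary in level. The ratio of the highest to the lowest of the 4 group means had a median of 1.82 (1.1 to 5.09): it was under 1.5 in 18 regions and over 2 in 33. The 5 steadiest regions were those named by Agpat3, Gm46353, Cxxc4, Gm35751 and Tm4sf1. The region inside Agpat3, a gene for an acyltransferase of phospholipid synthesis (chr10:78337072-78339430), had 23.6, 28.6 and 32.1 CPM in Res, 27, 26.1 and 32.3 in Sen, 24.1, 31.1 and 29.8 in Res_shFabp7, and 29.4, 32.1 and 31.3 in Res_Ctrl. All 4 groups overlapped there. The region named by Cxxc4, a CXXC zinc finger gene, and the one named by Tm4sf1, a membrane protein gene, had ratios of 1.25 and 1.28.

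The highest regions were those of Fer1l6, Asap1, Gm51579, Matn2, Lurap1l and Lrig1, in that order of mean CPM. The region inside Fer1l6, the widest of the 80 (chr15:58535283-58549171), had 241, 285 and 218 CPM in Res, 89.9, 219 and 241 in Sen, 84.5, 120.3 and 101 in Res_shFabp7, and 129.6, 144 and 151 in Res_Ctrl. Its Res and Sen libraries overlapped, and the first Sen library was far below the other two. Lurap1l (chr4:81035415-81040473) had 87.5, 109.8 and 58.2 CPM in Res and 80.1, 103 and 99.9 in Sen, which overlapped, and 36.8, 59.0 and 65.1 in Res_shFabp7 against 65.4, 79.0 and 76.3 in Res_Ctrl, which did not, though its difference of -0.44 ± 0.22 (log2, SE) missed the threshold (edgeR adjusted p = 0.38).

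**Figure D3:**
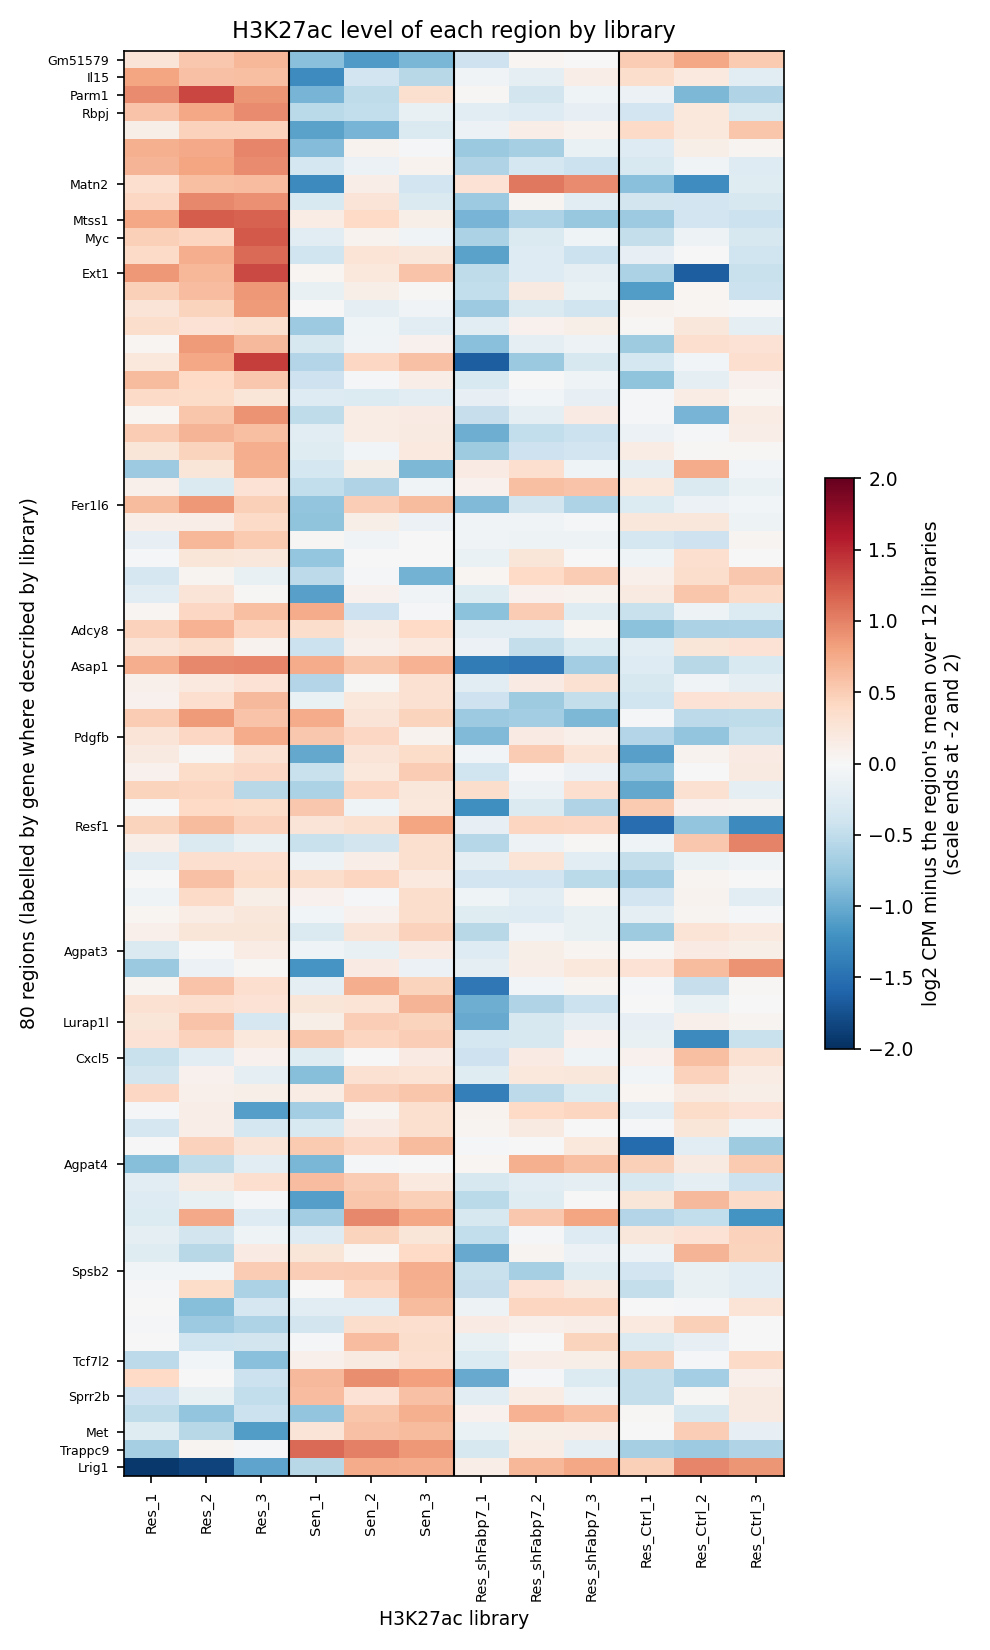
Level of H3K27ac in each of the 80 regions (y axis, with the regions described by library labelled, ordered by the log2 change in Res against Sen) in the 12 libraries (x axis), as log2 CPM minus the region's mean over the 12 libraries; red is higher and blue lower. The regions at the top are red in the 3 Res libraries and those at the bottom mostly red in Sen, and the ratio of highest to lowest group mean runs from 1.1 to 5.09.

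Differences between groups were tested with edgeR's quasi-likelihood test on tags per region, fitted on all 11679 constant regions and 12 libraries, with Benjamini-Hochberg adjustment over all of them and a threshold of 0.05. Because a region had to have a peak in every library, a region lost altogether in one group could not be among the 80. Tags were deposited per called peak, so a region with a longer called stretch also counted more tags. Tags per called base were therefore tested too (limma). On that measure the median of all constant regions was itself off 0, at -0.12 in Res against Sen, -0.25 in Res_shFabp7 against Res_Ctrl and 0.04 in Res_Ctrl against Res, so values are given with each library centred on its median over all constant regions, a setting chosen after seeing the data. The labels call the replicates biological without naming cultures or days, so p-values measure the spread between these samples.

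In Res against Sen, which asks how the resistant line differs from the sensitive one, 20 of the 80 regions rose and 9 fell. Only the Res labels add PD-1 inhibitors, so line and treatment cannot be told apart in this comparison. The 20 higher regions (25%) stand beside 20.5% of all constant regions higher, and the 9 lower (11.25%) beside 17.3% lower, so the higher share was near the background. The median log2 change was 0.12 over the 80 and -0.01 over all constant regions. All 20 higher regions and 6 of the 9 lower ones had 3 Res libraries that did not overlap the 3 Sen libraries; over the 80, called or not, 22 (27.5%) were higher and 6 (7.5%) lower without overlap, beside 25.3% and 22.0% of all constant regions. In 18 of the 20 the called length was also longer in every Res library, and in 1 of the lower ones it was shorter in every Res library. No share of all constant regions was counted for called lengths. The median called length of the 80 was 1450 bases in the first Sen library and 2082 to 3240.5 in the others. As centred tags per called base (limma), 7 of the 80 were higher (8.75%, beside 13.9% of all constant regions) and 11 lower (13.75%, beside 13.2%), and 7 of the 20 and 7 of the 9 were among them. Without the centring 0 were higher and 1 lower (1.04% and 5.04% of all constant regions). Without the first Sen library 13 regions rose, and the lower count was 5 when the second Sen or the second Res library was left out and 4 when the third Sen library was. Shares of all constant regions under these leave-outs are not given here, so these counts do not set the 80 apart. Among the 272 regions chosen and fitted without the first Sen library, 60 rose (22.1%) and 26 fell (9.56%), beside 20.1% and 17.9% of the 13063 regions then tested.

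The largest increase was at the region named by Gm51579 (chr8:79546894-79553278), a predicted gene 84437 bases away. It had 100.2, 122 and 133 CPM in Res and 47.0, 38.6 and 44.7 in Sen, a log2 change of 1.45 ± 0.15 (SE; edgeR adjusted p = 8e-06). Every Res library was above every Sen library, and the called length was 5695, 5690 and 5830 bases in Res and 2073, 2160 and 2387 in Sen. Per called base, centred, its log2 change was 0.16 ± 0.08 (limma adjusted p = 0.14). The region named by Il15 (chr8:82258487-82263365), the gene of a cytokine that sustains natural killer and memory CD8 T cells, had 84.4, 73.6 and 74.5 CPM in Res and 20.5, 37.7 and 33.2 in Sen. Its log2 change was 1.31 ± 0.19 (edgeR adjusted p = 0.00014), again with no overlap. Both lie on chromosome 8, where 45.6% of the 701 constant regions were higher and the median log2 change was 0.34.

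The region inside Parm1 (chr5:91563124-91568832), a gene for a mucin-like protein, had 94.0, 123.3 and 90.02 CPM in Res and 25.6, 34.6 and 61.3 in Sen (log2 change 1.30 ± 0.26, edgeR adjusted p = 0.0014). The third Sen library was the closest to Res. Rbpj, the DNA-binding factor of Notch signalling, names a region (chr5:53436312-53439749) with 56.2, 65.3 and 73.2 CPM in Res and 26.1, 27.2 and 34.5 in Sen (log2 change 1.13 ± 0.17, edgeR adjusted p = 0.00017). At Rbpj and Parm1 all Res libraries were higher than all Sen libraries. Further regions that rose without overlap were named by Adam11, a protease-family member without protease activity (log2 change 1.05), Actbl2, an actin-like gene (1.00), Gpr39, a zinc-sensing receptor (0.92), and Matn2, a gene of the extracellular matrix (0.87).

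Myc, the growth-promoting transcription factor, names a region (chr15:62498895-62504467) with 81.4, 78.8 and 138 CPM in Res and 50.3, 61.8 and 56.0 in Sen. The groups did not overlap, and its log2 change was 0.81 ± 0.21 (edgeR adjusted p = 0.0070). Its called length was 4749, 3416 and 5279 bases in Res and 1989, 2902 and 2782 in Sen, and per called base, centred, its log2 change was 0.08 ± 0.10 (limma adjusted p = 0.57). The gene end is 508534 bases away, so the name says nothing of what the region acts on. The other 11 regions that rose had log2 changes of 0.49 to 0.84, among them those of Mtss1, a gene for a membrane and actin binding protein, Ext1, which builds heparan sulfate, and Znrf3, a ubiquitin ligase that lowers Wnt receptors. The call at Ext1 was lost without the third Res, the first Sen or the second Sen library, and that at Znrf3 without the second or the third Res or the first or the third Sen library.

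The largest decrease was at the region named by Lrig1 (chr6:94742377-94750210), whose protein restrains ErbB receptors. It had 15.8, 16.6 and 29.0 CPM in Res and 41.0, 100.5 and 99.2 in Sen, a log2 change of -2.02 ± 0.32 (edgeR adjusted p = 0.00024). All Res libraries were lower, and the first Sen library was the lowest of its group. The called length was 1496, 1166 and 1897 bases in Res and 1659, 6227 and 5864 in Sen. Per called base, centred, its log2 change was -0.41 ± 0.10 (limma adjusted p = 0.0019); without the centring it was -0.52 ± 0.19 (adjusted p = 0.079).

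The region inside Trappc9 (chr15:72891159-72894721), a gene of vesicle transport, had 18.1, 29.8 and 28.2 CPM in Res and 63.3, 57.7 and 52.5 in Sen (log2 change -1.20 ± 0.18, edgeR adjusted p = 0.00020). The region inside Met (chr6:17547791-17552049), the receptor of hepatocyte growth factor, had 44.1, 35.7 and 24.1 CPM in Res and 62.4, 78.7 and 81.4 in Sen (log2 change -1.09 ± 0.21, edgeR adjusted p = 0.0011). At both, Res and Sen did not overlap. Lrig1 and Met lie on chromosome 6, where 42.0% of the 543 constant regions were lower and the median log2 change was -0.34. At Sprr2b (chr3:92302897-92306839) H3K27ac was 35.0, 42.1 and 33.1 CPM in Res and 71.2, 56.4 and 69.4 in Sen (log2 change -0.83 ± 0.17, edgeR adjusted p = 0.0021). It was the 1 region that fell per called base also without the centring (log2 change -0.48 ± 0.10, limma adjusted p = 0.00048 with it, and -0.58 ± 0.17, adjusted p = 0.017 without). Regions named by Plscr4, a scramblase gene (-0.77), and inside Tcf7l2, the transcription factor that carries Wnt signals with beta-catenin (-0.65), fell without overlap, while those of Opcml and Gad2 fell with overlapping libraries (-0.91 and -0.60). Plscr4 and Gad2 were no longer called without the second or the third library of either group, Opcml without the second library of either group or the third of Sen, and Tcf7l2 without the third library of either group.

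**Figure D4:**
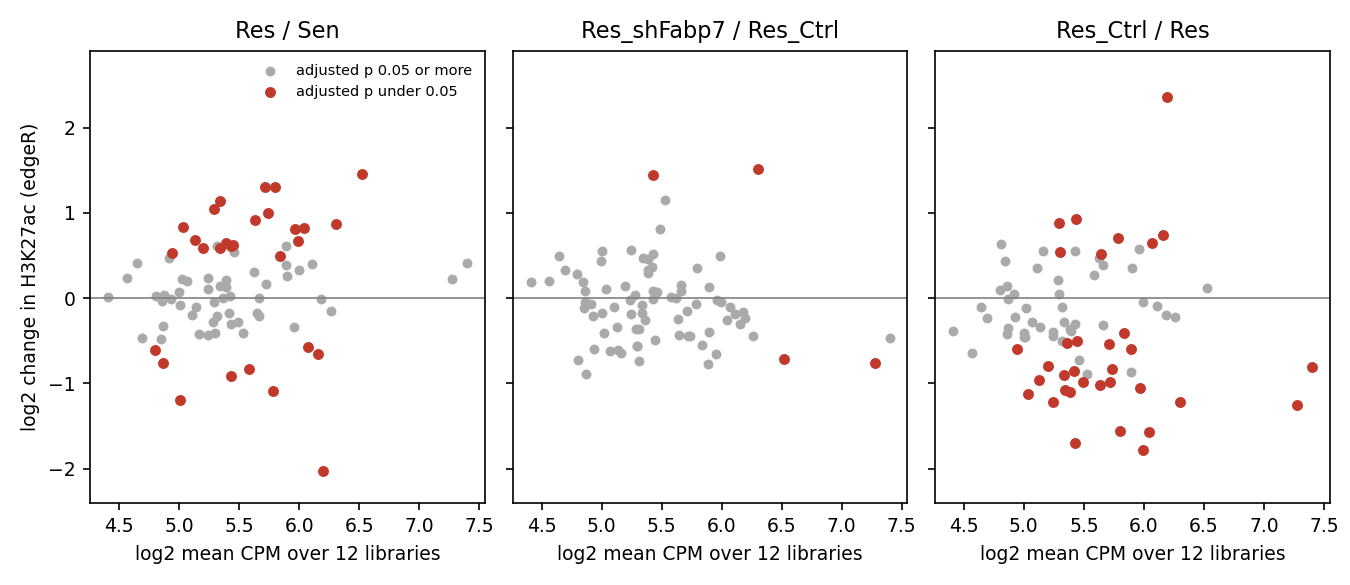
Log2 change in H3K27ac of each of the 80 regions (y axis, edgeR) against its log2 mean CPM over the 12 libraries (x axis) in Res against Sen, Res_shFabp7 against Res_Ctrl and Res_Ctrl against Res, with red points for an adjusted p under 0.05. Red points number 29, 4 and 34.

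In Res_shFabp7 against Res_Ctrl, which asks what changed with the Fabp7 hairpin in resistant cells, 2 of the 80 regions rose and 2 fell. Each is 2.5% of the 80, beside 0.437% of all constant regions higher and 1.02% lower. The median log2 change was -0.09 over the 80 and 0.00 over all constant regions, and 6 regions (7.5%) were higher and 19 (23.75%) lower without overlap between the 3 and 3 libraries, beside 10.6% and 13.1% of all constant regions. An alternative fit took the replicate number as a block, which the main fit did not. With the block 4 regions rose (5.0%) and 6 fell (7.5%), beside 1.70% and 3.28% of all constant regions. Per called base, centred, 0 were higher (0.711% of all constant regions) and 10 lower (12.5%, beside 2.04%); uncentred, all 80 values were negative, with 0 higher and 20 lower (25%) past the threshold, beside 0.00% and 8.35%. Among the 272 regions, 4 rose (1.47%) and 15 fell (5.51%), beside 1.19% and 2.55% of all regions then tested.

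Matn2, which encodes the matrix protein matrilin-2, holds one of the 2 regions that rose (chr15:34404179-34415767). It had 84.5, 144 and 134 CPM in Res_shFabp7 and 39.0, 29.4 and 58.9 in Res_Ctrl, a log2 change of 1.51 ± 0.30 (edgeR adjusted p = 0.029). All Res_shFabp7 libraries were higher, and the called length was 6328, 11071 and 11119 bases in Res_shFabp7 and 2708, 1715 and 3742 in Res_Ctrl. Per called base, centred, the log2 change was -0.04 ± 0.09 (limma adjusted p = 0.86).

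The region named by Resf1 (chr6:149276359-149280921), a gene for a factor that silences retroelements, had 34.6, 52.1 and 51.4 CPM in Res_shFabp7 and 13.4, 22.2 and 15.9 in Res_Ctrl (log2 change 1.45 ± 0.22, edgeR adjusted p = 0.0083). The groups did not overlap. Called lengths were 2525, 4027 and 3854 bases in Res_shFabp7 and 1000, 1289 and 1158 in Res_Ctrl, and per called base, centred, the log2 change was 0.11 ± 0.10 (limma adjusted p = 0.57). In Res and Sen the region had 52.6, 59.7 and 53.0 CPM and 46.1, 47.9 and 67.0 CPM.

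Asap1, a gene for a regulator of Arf GTPases, names a region (chr15:64469597-64480382) with 50.2, 49.2 and 81.9 CPM in Res_shFabp7 and 111, 90.2 and 108 in Res_Ctrl. It fell by 0.76 ± 0.17 on the log2 scale (edgeR adjusted p = 0.048), without overlap. Per called base, centred, its log2 change was -0.28 ± 0.09 (limma adjusted p = 0.076), which missed the threshold. The region of Gm51579 had 63.3, 86.8 and 83.4 CPM in Res_shFabp7 and 119, 144 and 121 in Res_Ctrl (log2 change -0.71 ± 0.14, edgeR adjusted p = 0.031). Those groups did not overlap, and per called base, centred, it fell by 0.42 ± 0.08 (limma adjusted p = 0.0045). On chromosome 8, 3.42% of the constant regions were lower. None of the 4 calls was kept under every leave-out: leaving out 1 library left 0 to 2 higher and 0 or 1 lower, with 0 higher without the second Res_shFabp7 or the third Res_Ctrl library and 0 lower without any library but the third Res_shFabp7. Asap1 also missed the threshold with DESeq2's size factors and at a caller p of 1e-10.

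Gm51579 and Matn2 were the 2 regions past the threshold both in this comparison and in Res against Sen, which share no library. Gm51579 was higher in Res than in Sen (1.45) and lower in Res_shFabp7 than in Res_Ctrl (-0.71). Matn2 was higher in Res (87.4, 105 and 107 CPM) than in Sen (28.9, 76.2 and 53.3 CPM) and higher in Res_shFabp7 than in Res_Ctrl, with log2 changes of 0.87 ± 0.29 (edgeR adjusted p = 0.031) and 1.51. The Matn2 call in Res against Sen was lost without the second or the third Res or the first or the third Sen library, and with regions chosen and fitted without the first Sen library.

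**Figure D5:**
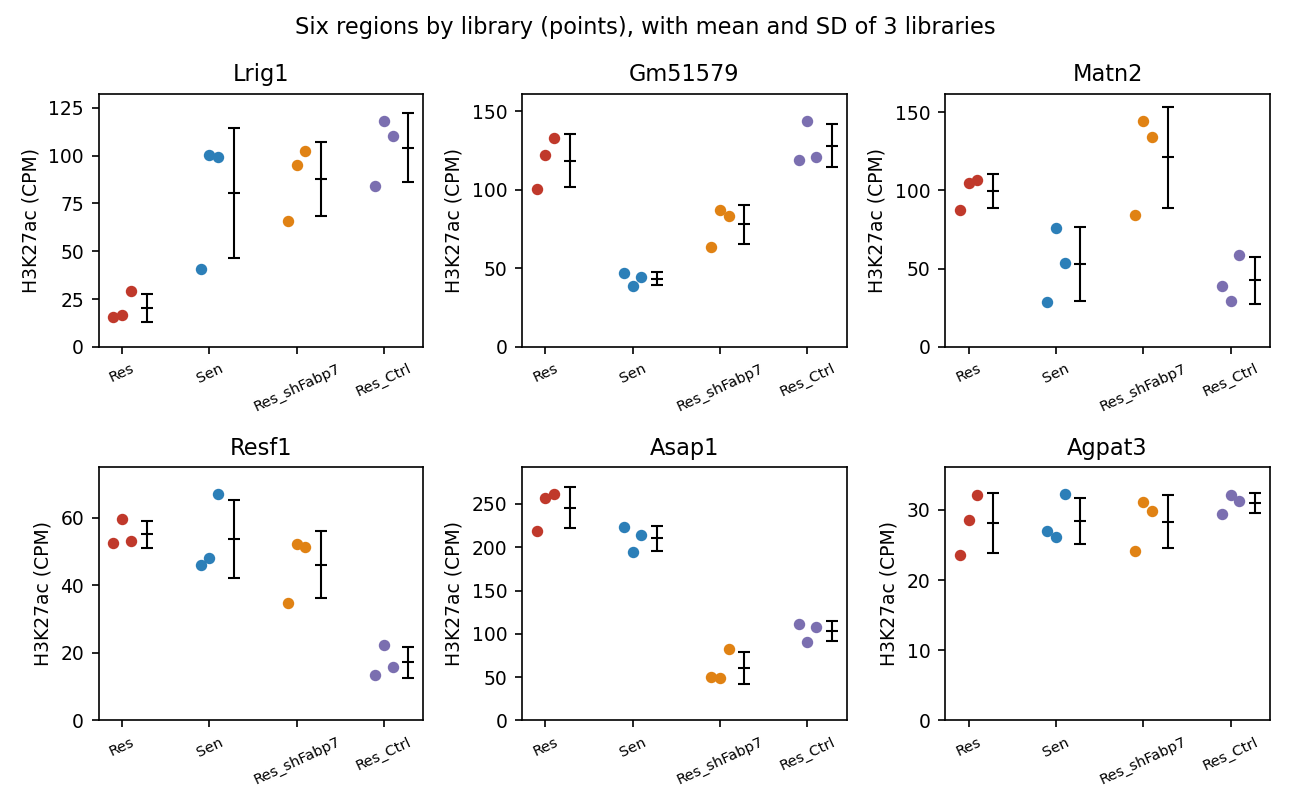
H3K27ac (CPM, y axis) at 6 regions in the 4 groups (x axis); points are the 3 libraries of a group, and the bar beside them is their mean with the SD. Lrig1 is lowest in Res (15.8 to 29.0), Gm51579 is lowest in Sen, Resf1 is lowest in Res_Ctrl, and Agpat3 lies between 23.6 and 32.3 in all 12 libraries.

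Res_Ctrl and Res, both labelled as the resistant line, differed past the threshold at 34 of the 80 regions. Since only the Res labels add PD-1 inhibitors, that treatment and whatever else separates Res_Ctrl from Res cannot be told apart. This comparison shares its libraries with both others, so its values stand beside theirs and are no separate evidence. In Res_Ctrl against Res 8 regions rose (10.0%, beside 17.4% of all constant regions) and 26 fell (32.5%, beside 21.6%). The median log2 change was -0.36 over the 80 and -0.02 over all constant regions. Of the 8 and the 26, 7 and 24 had no overlap between libraries. Called lengths did not overlap in 5 of the 8 and 24 of the 26. These included Cxcl5, Pdgfc and Cav2, whose CPM did overlap. No share of all constant regions was counted for called lengths. Over the 80, called or not, 10 (12.5%) were higher and 32 (40%) lower without overlap, beside 22.6% and 27.7% of all constant regions. Per called base, centred, 6 rose (7.5%, beside 14.1%) and 15 fell (18.75%, beside 16.0%), with 3 of the 8 and 13 of the 26 among them; uncentred, 0 rose and 0 fell (4.20% and 1.55% of all constant regions). With the replicate block 9 rose (11.25%) and 34 fell (42.5%), beside 20.8% and 25.3% of all constant regions. Among the 272 regions 36 rose (13.2%) and 74 fell (27.2%), beside 19.5% and 23.4%. The number higher was 5 without the first or the second Res library, 4 without the second Res_Ctrl library and 5 without the third Res_Ctrl library.

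Chromosome 15 held the most lower regions, where 10 of the 12 regions fell and the median log2 change was -1.06. Of all 603 constant regions of that chromosome, 269 (44.6%) fell, with a median of -0.30. The 12 were named by Dap (both regions), Matn2, Rspo2, Ext1, Fer1l6, Mtss1, Myc, Asap1, Adcy8, Trappc9 and Pdgfb, and the 2 that did not pass were Trappc9 and the first Dap region. Of the 10, the Fer1l6 call was lost without the second Res library or without any 1 Res_Ctrl library, and the other calls were kept without each library in turn. Calls at the second Dap region, Matn2, Rspo2, Fer1l6 and Myc were lost per called base, centred, and the others of the 10 were kept. In Res against Sen, 4 of the 12 rose and 1 fell, beside 7.30% and 31.7% of the constant regions of chromosome 15.

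Mtss1 (chr15:59103778-59108761) had 35.0, 44.4 and 43.0 CPM in Res_Ctrl and 99.0, 134 and 130.1 in Res, a log2 change of -1.57 ± 0.15 (edgeR adjusted p = 4e-06). Ext1 (chr15:53099260-53105358) had 36.1, 17.8 and 40.7 CPM in Res_Ctrl and 102, 88.3 and 139 in Res (log2 change -1.78 ± 0.25, edgeR adjusted p = 9e-05). In both, every Res_Ctrl library was below every Res library. Called lengths at Mtss1 were 2088, 2108 and 2119 bases in Res_Ctrl and 4719, 4926 and 4198 in Res, and per called base, centred, Mtss1 fell by 0.48 ± 0.09 (limma adjusted p = 0.00026) and Ext1 by 0.44 ± 0.09 (limma adjusted p = 0.00052). Adcy8, an adenylyl cyclase gene whose region (chr15:64556916-64560116) overlaps the long non-coding RNA Gm30632, had 20.3, 23.2 and 23.3 CPM in Res_Ctrl and 49.2, 58.5 and 48.4 in Res (log2 change -1.22 ± 0.14, edgeR adjusted p = 2.3e-05). Off chromosome 15, Resf1 fell by 1.70 ± 0.22 on the log2 scale (edgeR adjusted p = 5.2e-05), Parm1 by 1.55 and Rph3al, a gene of secretory vesicle release, by 1.13. The call at Rph3al was lost per called base, centred, and those at Resf1 and Parm1 were kept.

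Lrig1 led the regions that rose, with 83.9, 118 and 110.5 CPM in Res_Ctrl and 15.8, 16.6 and 29.0 in Res (log2 change 2.36 ± 0.32, edgeR adjusted p = 7.1e-05). Its Res_shFabp7 libraries had 65.8, 95.1 and 102 CPM, so Res stood below the other 3 groups. Agpat4, a gene for an acyltransferase of phospholipid synthesis (chr17:12204822-12210318), had 56.6, 45.8 and 58.4 CPM in Res_Ctrl and 22.5, 28.4 and 34.7 in Res (log2 change 0.93 ± 0.24, edgeR adjusted p = 0.0071). Called lengths there were 4056, 2390 and 3746 bases in Res_Ctrl and 1942, 1863 and 2032 in Res. Further regions that rose without overlap were named by Nr2f1, a nuclear receptor gene (0.88), Tcf7l2 (0.74), Met (0.71) and Serp2 (0.54), while Cxcl5 rose with overlapping libraries (0.52). The calls at Serp2 and Cxcl5 were lost without the first or second Res or the second or the third Res_Ctrl library, that at Nr2f1 without the first Res or the third Res_Ctrl library, and that at Met without the third Res or the second Res_Ctrl library. Those at Agpat4, Tcf7l2, Serp2 and Cxcl5 were lost per called base, centred, and those at Lrig1, Nr2f1 and Met were kept.

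The 6 regions named by genes on the lists differed among themselves. Met and Tcf7l2 were lower in Res than in Sen and higher in Res_Ctrl than in Res, with Tcf7l2 (chr19:55793385-55799935) at 96.4, 68.0 and 90.5 CPM in Res_Ctrl, 48.0, 66.5 and 38.8 in Res and 74.0, 78.2 and 87.5 in Sen. Myc was higher in Res than in Sen and lower in Res_Ctrl than in Res. Pdgfb and Pdgfc, genes for platelet-derived growth factors, did not pass the threshold in Res against Sen (log2 changes 0.14 ± 0.23 and 0.39 ± 0.18; edgeR adjusted p = 0.66 and 0.11). The region named by Pdgfb (chr15:80034129-80038983) had 25.4, 22.2 and 28.2 CPM in Res_Ctrl and 45.5, 50.9 and 64.2 in Res, and fell by 1.07 ± 0.24 on the log2 scale (edgeR adjusted p = 0.0032). The region inside Pdgfc had a log2 change of -0.59 ± 0.18 in Res_Ctrl against Res (edgeR adjusted p = 0.020), with overlapping libraries. Its call was lost without the second or the third Res or the first or the second Res_Ctrl library, and per called base, centred. Cxcl5, a neutrophil-attracting chemokine gene, names a region (chr5:90729234-90734695) with 36.2, 42.1 and 52.3 CPM in Res and 41.4, 48.8 and 55.0 in Sen, which overlapped. None of the 6 passed the edgeR threshold in Res_shFabp7 against Res_Ctrl.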

How the data were processed

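Chromatin immunoprecipitation libraries for H3K27ac and H3K9ac were read as 50-base single reads and, per the submitters' processing notes, handled with Bowtie 1.1.2, MACS 1.4.2 and mm10; settings beyond the caller p of 1e-05 in the lists' names are not given in the sources used here. The authors deposited 1 peak list per library (24 lists, 447697 peaks), with the tag count per peak, a score made from the caller's p (lowest 50.0) and a fold ratio over background. Inputs were not analysed here.

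H3K27ac peaks sharing at least 1 base were merged over lists, and tag counts were summed per region and library. Gene ends came from RefSeq (GRCm38.p6). The fit used edgeR 4.0.16 (glmQLFit and glmQLFTest, TMM) on 11679 regions and 12 libraries, with limma 3.58.1 for log2 tags per called base and DESeq2 1.42.0 as an alternative (R 4.3.3). It was tested on simulated counts. Depth, as tags in H3K27ac peaks, ran from 2241387 to 10521234 per library; counting intervals are not printed, and reads carry no molecular identifiers. The closing section gives counts for most alternatives. Those with an offset fitted to each library's trend with intensity and with total tags without TMM are not given. For Res against Sen and Res_Ctrl against Res, those with DESeq2, its size factors and 6 libraries only are not given either.

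Deviations from the group means correlated between same-numbered libraries of Res_shFabp7 and Res_Ctrl (r across regions 0.420, 0.188 and 0.235). For Res_Ctrl and Res these values were 0.383, 0.102 and 0.105. Between replicates 2 and 3 of different groups, r was 0.162 and 0.131 for Res_shFabp7 and Res_Ctrl. It was 0.167 and 0.074 for Res_Ctrl and Res. Between replicate 1 and replicates 2 or 3 it was negative throughout (-0.315 to -0.157). The deviations of a group's 3 libraries sum to 0, so positive values for same-numbered libraries push the other values down. For Res_shFabp7 and Res_Ctrl each same-numbered value was above all others, while for Res_Ctrl and Res this held only for replicate 1. These values therefore cannot decide whether libraries were paired by number. The replicate number was a block in an alternative fit only. Replicates of the same group and mark shared at most 0.0101% of identical peak intervals.

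Named regions are the 6 highest, up to 8 higher and 8 lower per comparison past 0.05 without overlap (by size of change, with full statistics for at most 4), the 5 steadiest, the 6 highest on a non-coding gene, up to 3 per gene list and 2 on each side of the distance limit. Spsb2, Kcnt2, Smu1, Lrriq3, Dap, and the genes described only by their ends were named after their values were seen. The values of 1 region and 1 marker gene are not reported here. Regions and lists were chosen with earlier results of these data known. Without a genome sequence, motifs were searched in 1 start window.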

Additional observations from a re-analysis of the deposited data

How the results depend on the processing

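The number of regions (80) was 71 and 86 at 10 and 2.5 kb from gene ends, 78 with no H3K9ac peak within 1000 bases, 60 at a caller p of 1e-10 and 440 with equal numbers of peaks per list. It was 80 to 272 without each H3K27ac list in turn and 80 to 106 without each H3K9ac list, an alternative chosen after seeing the data. Counts are given below as higher and lower. Where no share of all tested regions stands beside a count, here or above, a changed count does not set the 80 apart from other regions. In Res against Sen (20 and 9) they were 10 and 4 among regions with a mean of at least 200 tags, 12 and 15 at a caller p of 1e-10, 0 and 1 per called base, 7 and 11 per called base with centred libraries (an alternative chosen after seeing the data), 23 and 10 with the replicate block (24.0% and 20.8% of all constant regions), and 13 to 21 and 4 to 11 without each library. Same-numbered Res and Sen libraries correlated at 0.275, 0.072 and 0.136, and the block is not read as a pairing in any comparison. In Res_shFabp7 against Res_Ctrl (2 and 2) they were 4 and 7 with DESeq2, 2 and 1 with DESeq2's size factors, 1 and 2 both at a mean of at least 200 tags and at a caller p of 1e-10, 0 and 20 per called base, 0 and 10 with centred libraries, 3 and 4 with 6 libraries only, 4 and 6 with the replicate block, and 0 to 2 and 0 to 1 without each library. In Res_Ctrl against Res (8 and 26) they were 5 and 13 at a mean of at least 200 tags, 0 and 0 per called base, 6 and 15 with centred libraries, 9 and 34 with the replicate block, and 4 to 11 and 21 to 29 without each library. Regions both chosen and fitted without the first Sen library, an alternative chosen after seeing the data, gave 60 and 26, 4 and 15, and 36 and 74 of 272 in the 3 comparisons. At a caller p of 1e-10 and at a mean of at least 200 tags fewer of the regions entered (60 and 30); the cause of the other changes was not tested.

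Per called base, where the median of all constant regions was -0.12, -0.25 and 0.04 in the 3 comparisons, the sign turned in Res against Sen at Spata1 (-0.019), Ncam1 (-0.015), Rph3al (-0.061), Adam11 (-0.074), Esyt2 (-0.11), Matn2 (-0.0069), Ext1 (-0.11) and Myc (-0.024), and in Res_shFabp7 against Res_Ctrl at Resf1 (-0.14) and Matn2 (-0.30), none past the threshold. In Res_shFabp7 against Res_Ctrl all 80 values were negative without the centring, so any region called higher turned sign there. With centred libraries the sign was turned at Esyt2 (-0.0050), Ext1 (-0.0071) and, in Res_shFabp7 against Res_Ctrl, Matn2 (-0.041). Of the 29, 4 and 34 regions called in the 3 comparisons, 17, 0 and 23 stayed past the threshold without each library in turn, 28, 2 and 34 were lost per called base, and 15, 3 and 18 with centred libraries. In all remaining settings that they entered, 20, 3 and 30 stayed past it. The depth of the first Sen library limits which regions count as constant, and tags counted only inside called peaks limit what a change in tags says.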
